A study of Vitis vinifera with 36 samples.

Results

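The AUX/IAA proteins and the auxin response factors (ARFs) form the core of the auxin response, and 42 of the 25280 genes in the deposited table belong to them. Members were taken by the Pfam domain that the table gives for a gene. The 25 genes with the domain AUX_IAA were taken as AUX/IAA and the 17 with Auxin_resp as ARF. The table gives 1 domain a gene, and 4 of the 25 AUX/IAA genes (VIT_215s0046g00290, VIT_202s0025g01740, VIT_210s0116g00310 and VIT_204s0043g00940) carry a description as an ARF. ARFs share the AUX/IAA-type interaction domain, so these 4 are named as such below and 21 AUX/IAA genes remain without them. The 42 genes lie on 16 chromosomes, and the names used here (IAA9, ARF4 and the like) are the descriptions in the table, which rest on similarity to genes of other plants.

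Auxin acts by removing repressors. At low auxin the AUX/IAA proteins bind ARFs on the promoters of auxin-responsive genes and recruit TOPLESS corepressors, and when auxin rises it glues the AUX/IAA protein to a TIR1/AFB receptor, which marks it for destruction. Most AUX/IAA genes are themselves auxin-responsive targets, and their transcripts are commonly read as a sign of auxin signalling. Some ARFs of Arabidopsis activate transcription (ARF5, ARF6, ARF7, ARF8 and ARF19), and the others mostly repress it. In the grape berry, a fruit that ripens without an ethylene burst, auxin holds back ripening and abscisic acid (ABA) promotes it.

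The berries were Cabernet Sauvignon of Vitis vinifera. Clusters with hard green berries received 1000 mg/L ABA (ABA1000), 100 mg/L of the synthetic auxin 1-naphthaleneacetic acid (NAA100) or the carrier only (Control), each as a first and a second spray hours apart, and all solutions, the carrier included, held 0.05% Tween 20. RNA came from the pericarp of deseeded berries at 4 stages of the modified Eichhorn-Lorenz scale, which were E-L 34 (onset of softening), E-L 35 (onset of colour), E-L 36 (further sugar gain) and E-L 38 (harvest-ripe). Each of the 12 groups had 3 libraries, each from berries pooled over the vines of a plot in randomized blocks, and replicates are numbered as the columns of the table. Groups were matched by stage and not by date, so effects of treatment and of sampling date cannot be told apart. Expression was given as FPKM, a fragment number scaled to transcript length and to library size, and means are followed by the SD over the 3 libraries of a group (n = 3 throughout).

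The libraries held total counts of 23.5 to 27.8 M (median 25.9 M), as recovered from the FPKM steps. The summed level of 17 seed markers (storage proteins and oleosins) was 102 to 641 FPKM in 33 libraries and 1485 to 2865 FPKM in the other 3, which were ABA1000 E-L 34 replicate 3, ABA1000 E-L 35 replicate 2 and NAA100 E-L 35 replicate 3. The members leaned most in 2 libraries, and others came near. Control E-L 34 replicate 2 was the highest of its group for 31 of the 36 members tested and for 52.2% of all genes tested. NAA100 E-L 35 replicate 3 was the lowest of its group for 28 of 36 and for 43.9% of all genes. Next were NAA100 E-L 34 replicate 3, the highest for 26 of 36 (43.2% of all genes), and Control E-L 34 replicate 1, the lowest for 24 of 36 (36.2%). Of the skin markers, MYBA2 and MYBA1, regulators of anthocyanin synthesis, ranged from 0.133 to 92.2 FPKM and from 0 to 13.9 FPKM. The UFGT gene of anthocyanin glucosylation was listed at 0 in 34 of the 36 libraries, ripe ones included, and the reason was not tested.

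A gene was tested where it reached 1 FPKM in at least 3 libraries, and 36 members (20 AUX/IAA and 16 ARF) of 17598 genes passed. The other 6 (VIT_205s0020g04690, VIT_218s0001g13810, VIT_204s0008g05560, VIT_204s0043g00940, VIT_210s0116g00310 and the ARF VIT_207s0104g01230) did not exceed 0.790 FPKM in any library. A difference was called where limma's adjusted p did not exceed 0.01 and the log2 fold change, on the log2(FPKM + 1) scale, was 1 or more in either direction, so that fold changes of genes near 1 FPKM are understated. In these bulk pericarp samples, fewer cells of a type and less RNA per cell cannot be told apart.

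The 2 families differed in how their expression was spread over the genes. Among the AUX/IAA genes 3 led. VIT_209s0002g05150 (auxin-induced protein 22A-like; chromosome 9, 4850834 to 4853366, plus strand) averaged 219 FPKM over all libraries, its neighbour VIT_209s0002g05160 (IAA17 by similarity; 4853689 to 4862233, same strand) 147 FPKM, and VIT_218s0001g08090 (IAA9, whose tomato counterpart restrains fruit set; chromosome 18, 6527840 to 6532323, plus strand) 90.2 FPKM. The first 2 lie 322 bp apart, and reads at their border could be counted for either, so the split between them is uncertain. Other pairs of members within 25.5 kb of each other lie on chromosomes 5, 7 and 14. Among the ARFs, 1 gene held the largest share of the expression. VIT_201s0244g00150 (ARF2-like, of a group that represses transcription in Arabidopsis; chromosome 1, 21717270 to 21724877, minus strand) had 35.4 to 62.3% of the ARF FPKM of a library (median 52.2%), and it was followed by VIT_217s0000g00320 (ARF2) at 44.0 FPKM and VIT_212s0035g01800 (ARF1) at 28.0 FPKM.

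By the control means, the members were most often highest at the first stage, and a few rose late. Of the 16 ARFs tested, 11 had their highest control mean at E-L 34 and the other 5 in the ripe berry, and of the 20 AUX/IAA genes, 9 had it at E-L 34, 3 at E-L 35, 3 at E-L 36 and 5 at E-L 38. The E-L 34 means include Control E-L 34 replicate 2, the highest of its group for 31 of 36 members and 52.2% of all genes. Peak stages were not recounted without that library or counted over all genes, so an early peak particular to these families was not tested. From E-L 34 to E-L 35, 1 of 36 members was called and it fell (1.72% of all genes tested fell). This was VIT_207s0141g00270 (auxin-induced protein 22D), with 26.0, 78.8 and 33.5 FPKM at E-L 34 and 9.82, 5.74 and 20.0 FPKM at E-L 35 (log2 fold change −1.87, SE 0.39, adjusted p = 8.3e-04). The groups did not overlap, and without Control E-L 34 replicate 2 the log2 fold change was −1.41 and was not called, nor was it without Control E-L 35 replicate 2 (−1.48).

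From E-L 35 to E-L 36 in the control, 1 of 36 members rose (0.790% of all genes) and 4 fell (3.87% of all genes). The riser was the 22A-like gene VIT_209s0002g05150, with 107, 177 and 127 FPKM at E-L 35 and 347, 319 and 330.1 FPKM at E-L 36, so that every library of the later stage was higher (log2 fold change 1.30, SE 0.24, adjusted p = 1.1e-04). The fallers were VIT_210s0003g04100 (ARF6, an activator in Arabidopsis; log2 fold change −1.06), VIT_202s0025g01740 (ARF9 by similarity; −1.06), VIT_211s0016g03540 (IAA27; −1.16) and VIT_215s0046g00290 (ARF9 by similarity; −1.48). The ARF6 call was lost without Control E-L 36 replicate 3 (−0.98), with median-of-ratios scaling and with quantile normalization. That of VIT_202s0025g01740 was not followed under other settings or with libraries left out. Under other settings the call of VIT_211s0016g03540 was lost in 6 of 9 and that of VIT_215s0046g00290 in 3 of 8. Among the control libraries at E-L 35, replicate 1 was high in the last 2 genes. That library held 9.74 FPKM of VIT_215s0046g00290 against 1.75 and 3.61 in its group, and 17.6 FPKM of VIT_211s0016g03540 against 4.50 and 6.47. Without it their log2 fold changes were −0.95 and −0.65, and both were also lost without Control E-L 36 replicate 1 (−1.25 and −1.04) or replicate 3 (−1.48 and −1.05), the IAA27 call further without Control E-L 35 replicate 3 (−1.31). The number of members called was 8 with 0.1 added to the FPKM, 3 under a filter on a mean of 5 FPKM, 2 with median-of-ratios scaling and 1 with quantile normalization, where all genes gave 1523, 536, 650 and 618 calls against 820 as first tested.

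From E-L 36 to E-L 38 in the control, 3 of 36 members rose (9.47% of all genes) and 1 fell (7.76% of all genes). VIT_205s0020g01070 (IAA31; chromosome 5, 2845405 to 2846994, minus strand) held 0.322, 0.277 and 0.559 FPKM at E-L 36 and 14.4, 9.55 and 6.08 FPKM at E-L 38. All 3 ripe libraries were far above the earlier ones (log2 fold change 2.92, SE 0.24, adjusted p = 5.4e-11). VIT_214s0030g02310 (22D) rose from 0.678 ± 0.132 to 7.38 ± 1.57 FPKM (log2 fold change 2.31, adjusted p = 5.3e-07) and VIT_211s0052g00870 (IAA33, in Arabidopsis an AUX/IAA protein that lacks the degron) from 0.201 ± 0.0802 to 1.81 ± 0.837 FPKM (1.19, adjusted p = 6.5e-08). The faller was VIT_211s0016g04490 (IAA1-like), from 40.3 ± 2.69 to 14.0 ± 1.52 FPKM (−1.47, adjusted p = 1.9e-08). All 4 were AUX/IAA genes, and the number called was 8 with 0.1 added to the FPKM, when calls among all genes went from 3032 to 4505. The ARF7-like gene VIT_211s0016g00640 climbed through the control stages in small steps, with means of 13.2, 16.1, 26.0 and 42.4 FPKM.

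**Figure D1:**
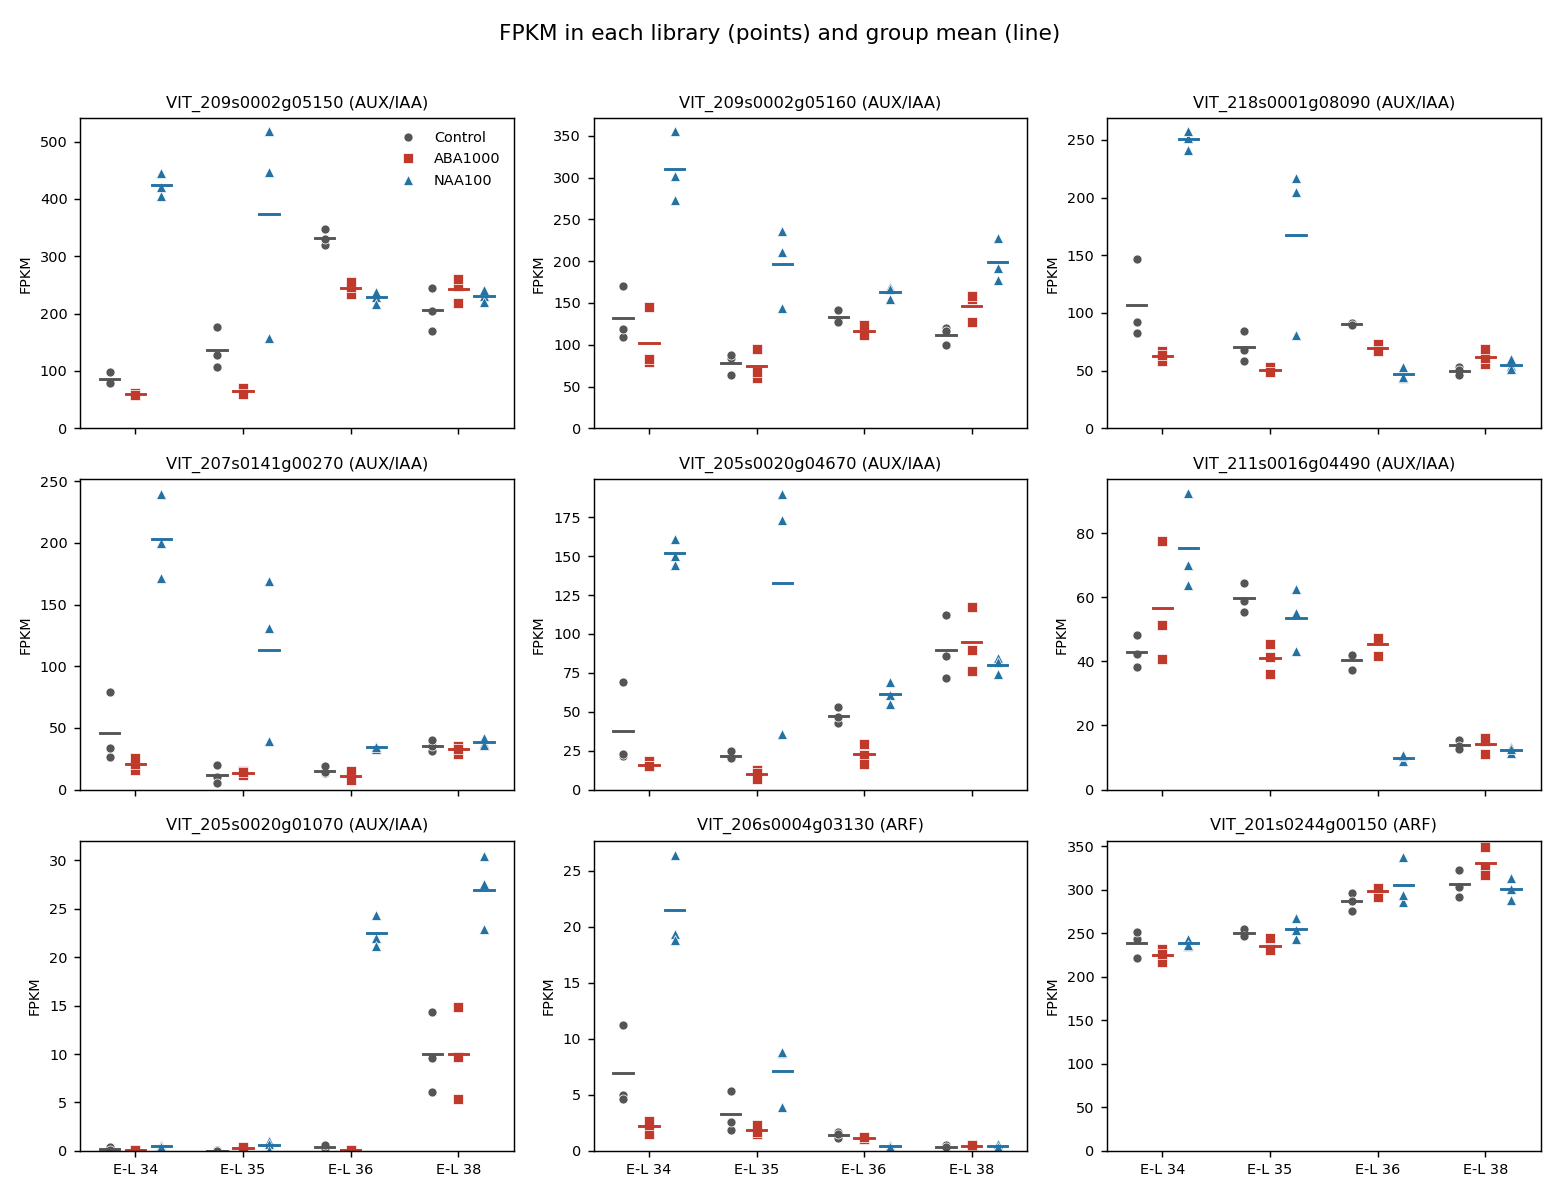
FPKM (vertical axes, each from 0) of 9 members in each library (points) with group means (lines), by stage on the horizontal axis and by treatment in grey (Control), red (ABA1000) and blue (NAA100). At E-L 34 the 3 NAA100 libraries of VIT_209s0002g05150 sit between 406 and 445 FPKM, above all control libraries of that stage (78.8 to 98.4), and at E-L 35 the third NAA100 library (158) lies within the control range.

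At E-L 34, the AUX/IAA genes were higher in NAA100 than in the control, and the ARFs less so. The summed FPKM of the AUX/IAA genes was 1683 in NAA100 and 605.6 in the control, a ratio of 2.78 with no overlap, while that of the ARFs was 642 and 528, a ratio of 1.22. Of the 36 members tested, 11 were called, all of them higher, against 2.25% of all genes called higher. They were 9 of 20 AUX/IAA genes and 2 of 16 ARFs. The median log2 fold change was 0.94 for AUX/IAA, 0.33 for ARFs and 0.08 for all genes tested. In 25 of 36 members every NAA100 library exceeded every control library, as did 26.5% of all genes.

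The gene with the highest mean, the 22A-like gene, also had the largest difference in FPKM. VIT_209s0002g05150 held 406, 445 and 420.0 FPKM in NAA100 and 78.8, 98.4 and 79.5 FPKM in the control, 4.95 times as much by the means (log2 fold change 2.30, SE 0.24, adjusted p = 6.1e-08). The groups were far apart and each was narrow. Its neighbour VIT_209s0002g05160 held 273, 301 and 356 FPKM against 109, 170.3 and 119 (log2 fold change 1.24, SE 0.20, adjusted p = 3.6e-05). The IAA9 gene VIT_218s0001g08090 held 252, 241 and 258 FPKM against 82.9, 146 and 92.3 (log2 fold change 1.26, SE 0.22, adjusted p = 9.5e-05). Neither gene's groups overlapped, and in both the second control library was the highest.

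The 22D genes, named after an early auxin-induced protein of mung bean, showed the same order from a lower base. VIT_207s0141g00270 (chromosome 7, 165372 to 166693, minus strand) held 239.8, 171 and 199.6 FPKM in NAA100 and 26.0, 78.8 and 33.5 FPKM in the control (log2 fold change 2.27, SE 0.39, adjusted p = 7.4e-05). VIT_205s0020g04670 (chromosome 5, 6535822 to 6537674, minus strand) held 144, 150.2 and 161 FPKM against 21.9, 69.1 and 22.7 (log2 fold change 2.18, SE 0.40, adjusted p = 1.7e-04). In both, Control E-L 34 replicate 2 lay between the other control libraries and the treated ones, and without it the log2 fold changes were 2.73 and 2.71. The least abundant 22D gene, VIT_214s0030g02310, held 2.05, 3.21 and 3.71 FPKM against 0.518, 1.56 and 0.195 (log2 fold change 1.24, SE 0.32, adjusted p = 0.00478). Its call was lost without Control E-L 34 replicate 1 (1.17) or replicate 3 (0.99) and without NAA100 E-L 34 replicate 2 (1.18) or replicate 3 (1.10).

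Among the remaining AUX/IAA genes called, VIT_207s0141g00290 (IAA16-like, 13.4 kb from the 22D gene of chromosome 7) rose from 18.1 ± 2.93 to 65.4 ± 11.4 FPKM (1.79, adjusted p = 2.4e-05). VIT_205s0049g01970 (IAA13) held 19.7, 20.8 and 25.9 FPKM against 3.90, 5.67 and 4.80 and had the smallest adjusted p of the members (log2 fold change 2.0, SE 0.17, adjusted p = 1.9e-09). VIT_211s0016g05640 (described as IAA9-like, and as IAA29 by its UniProt match) was nearly silent in the control, with 48 counts over 3 libraries of which 39 were in replicate 2, and had 280 counts in NAA100 (log2 fold change 1.502, adjusted p = 2.8e-05). The groups of these 3 genes did not overlap. Without the genes described as ARFs, the 9 calls were among 18 AUX/IAA genes, with a median log2 fold change of 1.17.

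Of the ARFs, those called were ARF3 and ARF4, which in Arabidopsis act in organ polarity and are regarded as repressors. VIT_206s0004g03130 (ARF4; chromosome 6, 3878777 to 3889544, plus strand) held 19.4, 18.8 and 26.4 FPKM in NAA100 and 5.02, 11.2 and 4.65 FPKM in the control (log2 fold change 1.58, SE 0.26, adjusted p = 4.1e-05). VIT_210s0003g00420 (ARF3; chromosome 10, 1694778 to 1705103, minus strand) held 45.1, 44.3 and 51.3 FPKM against 16.1, 25.5 and 18.8 (log2 fold change 1.20, SE 0.14, adjusted p = 4.5e-07). The treated libraries of both genes were above every control library. The most abundant ARF, VIT_201s0244g00150, was at 239 ± 4.63 FPKM in NAA100 and 239 ± 15.4 FPKM in the control (log2 fold change −0.002, SE 0.061). Among the ARFs that activate transcription in Arabidopsis, the ARF8 gene VIT_204s0079g00200 was at 17.6 ± 0.255 FPKM against 12.6 ± 1.04 (log2 fold change 0.46, adjusted p = 2.2e-04), the ARF19-like gene VIT_211s0065g00310 at 48.1 ± 2.54 against 33.9 ± 5.45 (0.50, adjusted p = 0.00253) and the ARF5 gene VIT_218s0001g13930 at 20.4 ± 0.243 against 21.2 ± 1.64 (−0.05, adjusted p = 0.731), and none of these 3 reached the fold limit. With the 6 libraries of this comparison fitted by themselves, 5 members and 457 of all genes were called, against 11 and 667.

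**Figure D2:**
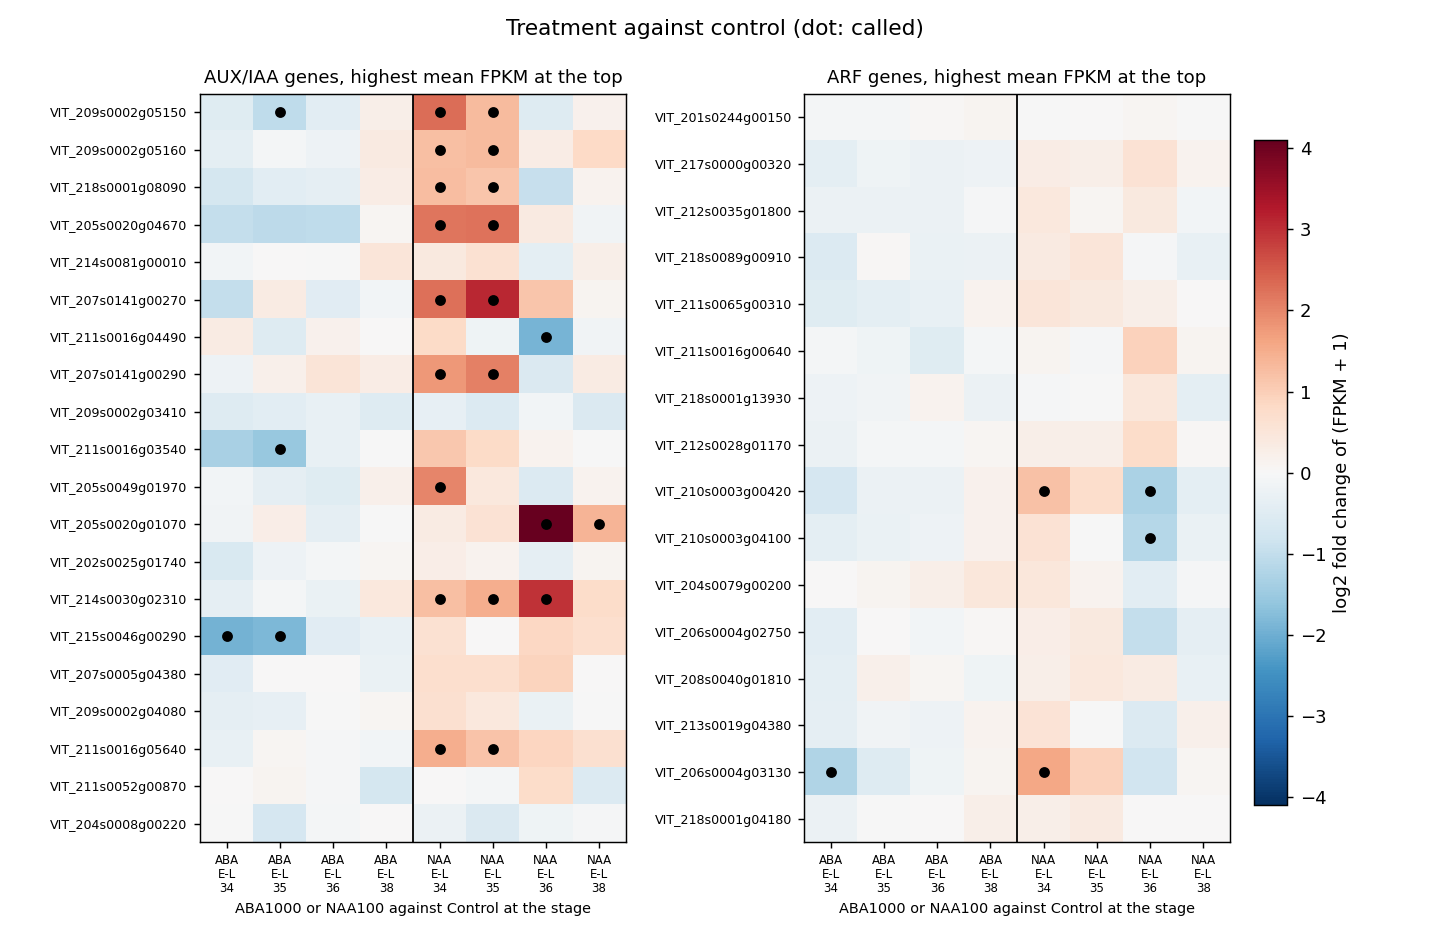
Log2 fold change of (FPKM + 1) of each treatment against the control of its stage (columns, ABA1000 left and NAA100 right of the line) for the 20 AUX/IAA and 16 ARF genes tested (rows), red for higher and blue for lower, with a dot for a call. In the NAA100 columns of E-L 34 and E-L 35 the dots are all on red cells (11 and 8), mostly among AUX/IAA genes, and in those of E-L 36 there are 2 on red and 3 on blue.

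At E-L 35, AUX/IAA genes were again higher in NAA100, with 1 of its libraries far below the others. The family sum was 1622, 1501 and 633 FPKM in NAA100 and 505, 525 and 468 FPKM in the control. Of 36 members, 8 were called and were higher (1.28% of all genes), and all 8 were AUX/IAA genes. The median log2 fold change was 0.65 for AUX/IAA, 0.23 for ARFs and 0.02 for all genes. Of the 16 ARFs, limma called 0, with 9 at an unadjusted p under 0.05. With limma-voom on the recovered counts, 9 of the 36 members were called higher and 1 lower, with the calls among all genes not given here.

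The 8 genes were also called at E-L 34. VIT_207s0141g00270 held 131, 169 and 39.8 FPKM in NAA100 and 9.82, 5.74 and 20.0 FPKM in the control (log2 fold change 3.08, SE 0.39, adjusted p = 7.5e-06), the largest fold change of this comparison. VIT_205s0020g04670 held 190.1, 173 and 35.4 FPKM against 20.3, 20.2 and 24.6 (log2 fold change 2.24, SE 0.40, adjusted p = 2.5e-04). VIT_207s0141g00290 held 99.9, 71.7 and 24.5 FPKM against 13.3, 12.4 and 12.5 (log2 fold change 2.06, SE 0.28, adjusted p = 1.7e-05). In each of these the third NAA100 library was several-fold below the other two and still above the control libraries.

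VIT_209s0002g05150 held 518, 447 and 158 FPKM in NAA100 and 107, 177 and 127 FPKM in the control, so that the third library fell inside the control range (log2 fold change 1.30, SE 0.24, adjusted p = 3.3e-04). VIT_209s0002g05160 (1.29), VIT_218s0001g08090 (1.13), VIT_214s0030g02310 (1.49) and VIT_211s0016g05640 (1.17) completed the list. NAA100 E-L 35 replicate 3 also held 2388 FPKM of seed markers, against 111 and 641 FPKM in the other NAA100 libraries of that stage, and 24.96 FPKM of MYBA2, against 3.67 and 3.08. Whether seed tissue or the state of ripening that these markers follow had a part in the result was not tested. Without the 3 libraries rich in seed markers, this one among them, 9 members were called higher. With the 6 libraries fitted by themselves 0 genes of all those tested were called, members included, so that fit says nothing about the members. The number called was 5 without NAA100 E-L 35 replicate 1. Calls among all genes in this fit and in the fit without the seed-rich libraries are not given here. Without NAA100 E-L 35 replicate 1 the calls of VIT_214s0030g02310 (0.98), VIT_209s0002g05150 (0.98) and VIT_218s0001g08090 (0.88) were lost, and without replicate 2 those of VIT_218s0001g08090 (0.92) and VIT_211s0016g05640 (0.84).

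At E-L 36 the pattern was different. In NAA100, 2 of 36 members were called higher (9.05% of all genes) and 3 lower (10.8% of all genes), which is 13.9% of the members. The AUX/IAA sum was 658 FPKM in NAA100 and 755.5 FPKM in the control. The IAA31 gene VIT_205s0020g01070 held 22.0, 24.4 and 21.2 FPKM in NAA100 and 0.322, 0.277 and 0.559 FPKM in the control, with 2636 and 47 counts (log2 fold change 4.09, SE 0.24, adjusted p = 6.4e-14). The 22D gene VIT_214s0030g02310 held 10.2 to 16.0 FPKM in NAA100 (mean 12.4 ± 3.17) against 0.553, 0.816 and 0.665 in the control, again without overlap (log2 fold change 2.98, SE 0.32, adjusted p = 5.4e-09). Both were also called between E-L 36 and E-L 38 in the control, a comparison that shares the control libraries of E-L 36.

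The members that fell at E-L 36 were 1 AUX/IAA gene and 2 ARFs. VIT_211s0016g04490 (IAA1-like) held 8.95, 10.4 and 10.7 FPKM in NAA100 and 41.7, 37.2 and 42.1 FPKM in the control (log2 fold change −1.91, SE 0.17, adjusted p = 1.2e-10). VIT_210s0003g00420 (ARF3) held 6.19, 4.28 and 4.95 FPKM against 13.2, 15.1 and 13.7 (log2 fold change −1.30, SE 0.14, adjusted p = 6.8e-09). VIT_210s0003g04100 (ARF6) held 3.13, 3.22 and 3.52 FPKM against 8.79, 9.67 and 7.71 (log2 fold change −1.18, SE 0.14, adjusted p = 2.8e-08). No treated library of the 3 genes reached the control range, and the 5 calls of this stage were kept in each fit with 1 library left out. The count of members called was 11 with 0.1 added to the FPKM, 9 with limma-voom and 8 with quantile normalization, where all genes gave 5236, 4984 and 3482 calls against 3496 as first tested.

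The change of the NAA effect from E-L 34 to E-L 36 was tested itself, as an interaction. It was called for 13 of 36 members, 2 upward (8.75% of all genes) and 11 downward (13.6% of all genes), and these were 8 AUX/IAA genes and 5 ARFs. For VIT_209s0002g05150 the log2 effect was 2.30 at E-L 34 and −0.54 at E-L 36 (difference −2.84, SE 0.34, adjusted p = 6.7e-08). For ARF3, VIT_210s0003g00420, it was 1.20 and −1.30 (difference −2.50, SE 0.20, adjusted p = 7.5e-11), a called rise at the first stage and a called fall at the other. For the IAA1-like gene, VIT_211s0016g04490, it was 0.79 and −1.91 (difference −2.70, SE 0.24, adjusted p = 4.0e-10). The opposite change was that of IAA31, VIT_205s0020g01070, from 0.34 to 4.09 (difference 3.75, adjusted p = 8.3e-10), a call lost with limma-voom on the recovered counts. The difference of VIT_205s0020g04670 (−1.81, adjusted p = 0.00769) was near the threshold and was lost in 10 of the 12 fits that leave out 1 library.

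**Figure D3:**
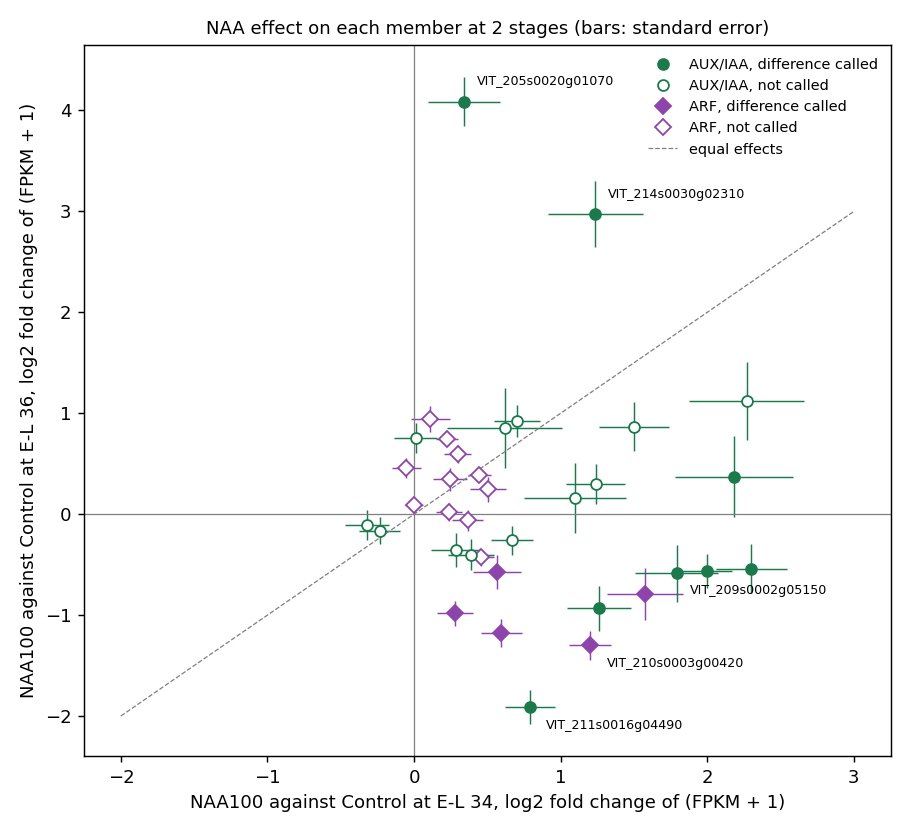
NAA effect on each of the 36 members at E-L 34 (horizontal axis) and at E-L 36 (vertical axis), as log2 fold change of (FPKM + 1) with standard errors, circles for AUX/IAA and diamonds for ARFs, filled where the difference between the stages was called. VIT_209s0002g05150 (2.30 and −0.54) lies below the line of equal effects, and VIT_205s0020g01070 (0.34 and 4.09) and VIT_214s0030g02310 (1.24 and 2.98) lie above it.

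At E-L 38, 1 of 36 members was called in NAA100 and it was higher (0.398% of all genes). It was again VIT_205s0020g01070, with 30.5, 22.9 and 27.5 FPKM in NAA100 and 14.4, 9.55 and 6.08 FPKM in the control, without overlap (log2 fold change 1.41, SE 0.24, adjusted p = 1.3e-04). The call was lost with 0.1 added to the FPKM and with these 6 libraries fitted by themselves, a fit that called 138 genes in all against 602. The medians of the members and of all genes were 0.01 and −0.06.

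In these genes, as in most genes tested, the NAA100 berries at E-L 36 lay closer to the ripe control than to the control of their own stage. Both comparisons of this paragraph were added after the values were seen, and all members were set beside the same NAA100 libraries. By their means, 32 of 36 members (88.9%) and 78.8% of all genes tested were nearer to the control at E-L 38 than to the control at E-L 36, and the median size of the members' log2 difference was 0.15 from the former and 0.57 from the latter, beside 0.17 and 0.51 over all genes. Against Control E-L 38, 1 of 36 members was called, higher (0.307% of all genes), which was VIT_205s0020g01070 (log2 fold change 1.16, adjusted p = 9.6e-04), and without Control E-L 38 replicate 3 it was 0.88 and not called, nor was it called with 0.1 added to the FPKM or with these 6 libraries fitted by themselves (182 genes called in all, against 646). Between these NAA100 libraries and those of E-L 38, limma called 0 of 36 members and 2 genes in all (0.0114%), with 1 member at an unadjusted p under 0.05 and 0 members called by limma-voom. The ARF7-like gene VIT_211s0016g00640 was at 50.7 ± 3.25 FPKM in NAA100 at E-L 36, 26.0 ± 2.82 in the control of that stage and 42.4 ± 2.22 in the ripe control.

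**Figure D4:**
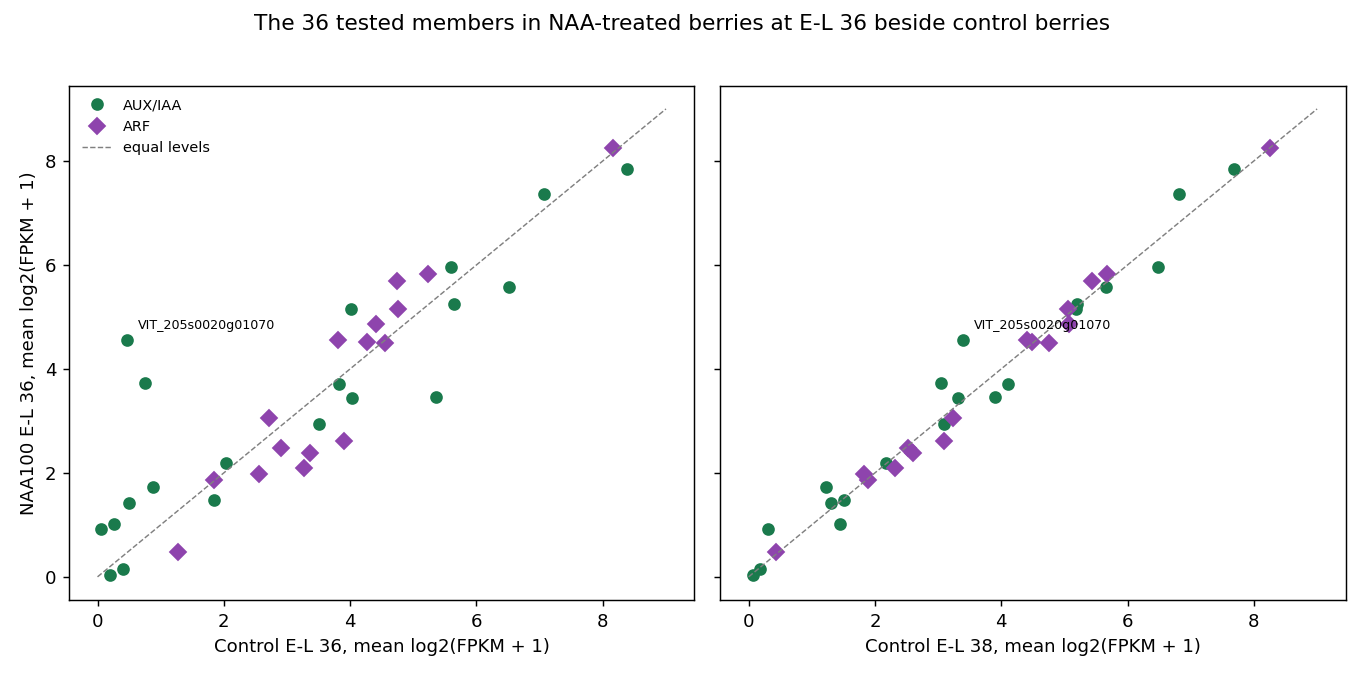
Mean log2(FPKM + 1) of the 36 members in NAA100 at E-L 36 (vertical axes) beside the control at E-L 36 (left) and at E-L 38 (right), circles for AUX/IAA and diamonds for ARFs, with the line of equal levels dashed. The points lie closer to the line on the right (median size of the difference 0.15, and 0.17 over all genes) than on the left (0.57, and 0.51 over all genes), with VIT_205s0020g01070 above it in both.

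Against the control, few members were called in ABA1000, and those called were lower and came from the first 2 stages. At E-L 34, 2 of 36 members were called, both lower (0.551% of all genes). Without the genes described as ARFs, 0 of 18 AUX/IAA genes were called. The fold changes of 33 members were below 0, with a median of −0.39 for AUX/IAA and −0.38 for ARFs against −0.08 for all genes, and in 20 of 36 every ABA1000 library was below every control library, as in 20.7% of all genes. With median-of-ratios scaling 30 of the 36 were below 0. Without Control E-L 34 replicate 2, the library high in most members, 31 were below 0, with a median of −0.21.

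The ARF4 gene VIT_206s0004g03130 held 1.55, 2.34 and 2.69 FPKM in ABA1000 and 5.02, 11.2 and 4.65 FPKM in the control (log2 fold change −1.24, SE 0.26, adjusted p = 0.00459). VIT_215s0046g00290, an AUX/IAA gene by domain and an ARF by description, held 1.30, 1.21 and 2.63 FPKM against 7.11, 19.7 and 5.34 (log2 fold change −1.95, SE 0.39, adjusted p = 0.00382). The groups of both genes were separate, but the calls were lost without Control E-L 34 replicate 2 (−0.89 and −1.44), without ABA1000 E-L 34 replicate 1 (−1.09 and −1.85) or replicate 2 (−1.28 and −1.82). Fitted by themselves, these 6 libraries gave 0 calls among all genes tested.

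At E-L 35, 3 of 36 members were called in ABA1000, all lower (0.608% of all genes) and all in the AUX/IAA set. VIT_215s0046g00290, described as an ARF, was among them, and without the genes so described 2 of 18 AUX/IAA genes were called. The fold changes of 25 members were below 0, with a median of −0.27 for AUX/IAA and −0.14 for ARFs against −0.08 for all genes. The 22A-like gene VIT_209s0002g05150 held 66.0, 71.1 and 59.4 FPKM in ABA1000 and 107, 177 and 127 FPKM in the control, 0.478 of the control level by the means (log2 fold change −1.03, SE 0.24, adjusted p = 0.00376). VIT_211s0016g03540 (IAA27) held 2.13, 2.41 and 1.91 FPKM against 17.6, 4.50 and 6.47 (log2 fold change −1.54, SE 0.35, adjusted p = 0.00299), and VIT_215s0046g00290 0.291, 0.243 and 0.880 FPKM against 9.74, 1.75 and 3.61 (log2 fold change −1.83, SE 0.39, adjusted p = 0.00204). The groups did not overlap. Without Control E-L 35 replicate 1 the last 2 log2 fold changes were −1.03 and −1.30 and were not called, and the IAA27 call was also lost without ABA1000 E-L 35 replicate 3 (−1.49) and that of VIT_215s0046g00290 without replicate 2 (−1.72), the library with 2865 FPKM of seed markers. The call of VIT_209s0002g05150 was lost without Control E-L 35 replicate 2 (−0.83) or without any 1 of the ABA1000 libraries (−0.96 to −1.09). No call of these members was kept with these 6 libraries fitted by themselves, a fit that called 36 genes in all against 256. With all libraries, the call of VIT_209s0002g05150 was also lost with median-of-ratios scaling. Those of VIT_211s0016g03540 and VIT_215s0046g00290 were also lost with limma-voom on the recovered counts.

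At the 2 later stages (E-L 36, then E-L 38), 0 of 36 members were called for ABA with limma and 0 with limma-voom, against 0.665% and 0.648% of all genes, and 8 members had an unadjusted p under 0.05 at each stage. At E-L 36 the fold changes of 28 members were below 0, with a median of −0.20 against −0.07 for all genes, and in 13 every ABA1000 library was below every control library, as in 24.8% of all genes. The AUX/IAA sum was 605.5 FPKM in ABA1000 and 755.5 FPKM in the control at E-L 36, without overlap, and 703 and 605 FPKM at E-L 38, with overlap. The 22D gene VIT_205s0020g04670, with 29.5, 22.5 and 16.5 FPKM in ABA1000 at E-L 36 and 52.8, 42.7 and 46.7 FPKM in the control, did not pass (log2 fold change −1.05, adjusted p = 0.082).

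The ABA1000 and NAA100 comparisons share their control libraries, so the treatments were also set against each other. At E-L 34, 15 of 36 members were called, all higher in NAA100 than in ABA1000 (5.80% of all genes), of which 13 were AUX/IAA genes and 2 ARFs. In 32 of 36 members all NAA100 libraries were above all ABA1000 libraries, as in 39.3% of all genes. The median log2 difference was 1.63 for AUX/IAA, 0.69 for ARFs and 0.17 for all genes. VIT_205s0020g04670 held 144, 150.2 and 161 FPKM in NAA100 and 18.2, 15.0 and 14.9 FPKM in ABA1000 (log2 fold change 3.17, SE 0.40, adjusted p = 4.6e-07). ARF4, VIT_206s0004g03130, held 19.4, 18.8 and 26.4 FPKM against 1.55, 2.34 and 2.69 (log2 fold change 2.82, SE 0.26, adjusted p = 2.8e-09). IAA27, VIT_211s0016g03540, not called against the control in NAA100 at this stage, held 33.5, 32.1 and 45.8 FPKM against 4.82, 6.48 and 7.08 (log2 fold change 2.42, SE 0.35, adjusted p = 3.1e-06).

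At E-L 35, 11 of 36 members were higher in NAA100 than in ABA1000 (1.18% of all genes), 10 AUX/IAA genes and ARF4. With the 6 libraries fitted by themselves 0 of all genes tested were called. At E-L 36, 6 were higher (12.7% of all genes) and 3 lower (12% of all genes). Among them were VIT_205s0020g01070, with 0.0750, 0.0748 and 0.0752 FPKM in ABA1000 (3 counts in each library) against a mean of 22.5 FPKM in NAA100, and the ARF7-like VIT_211s0016g00640 (18.0 ± 1.90 FPKM in ABA1000, log2 fold change 1.45, SE 0.13, adjusted p = 1.3e-10). At E-L 38 the IAA31 gene VIT_205s0020g01070 alone was called, higher (0.523% of all genes; log2 difference 1.44, adjusted p = 8.8e-05).

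The other genes of the pathway were counted from lists made by the KEGG ortholog, Pfam domain or description in the table, with the same limits for a call. Each count is to be read beside the share of all genes called in that comparison, which for NAA was 2.25% higher and 1.54% lower at E-L 34, 1.28% higher and 1.16% lower at E-L 35, 9.05% higher and 10.8% lower at E-L 36, then 0.398% higher and 3.02% lower at E-L 38. Of 9 TIR1/AFB receptor genes, which bind auxin together with AUX/IAA proteins, 6 were tested, and 1 was lower in NAA100 at E-L 36 (VIT_207s0104g01320, from 5.50 ± 0.0648 to 1.97 ± 0.232 FPKM). Of 9 efflux carriers (proteins that move auxin out of cells), 6 were tested and with NAA 3 rose at E-L 34, 2 at E-L 35 and 1 at E-L 36, while with ABA 1 fell at E-L 35 (VIT_201s0011g04860, log2 fold change −1.43; 0.608% of all genes) and 1 at E-L 36 (VIT_217s0000g02420, −1.18; 0.176% of all genes). VIT_217s0000g02420 went from a mean of 4.61 to 19.01 FPKM at E-L 34 (log2 fold change 1.89, adjusted p = 5.7e-07). Of 5 genes listed as influx carriers, 1 of which is a LAX PANICLE-like transcription factor and no carrier, 1 rose with NAA at E-L 34, 2 rose and 1 fell at E-L 36 and 1 fell at E-L 38.

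GH3 enzymes conjugate auxin to amino acids and so take it out of action. Of 11 genes listed by ortholog or domain, some of which carry another description or none, 6 were tested, and 3 rose with NAA at E-L 34, among them VIT_203s0091g00310 from 116 ± 9.48 to 273.5 ± 33.9 FPKM (log2 fold change 1.23, adjusted p = 3.3e-05), 1 rose at E-L 35 and 1 fell at E-L 36. SAUR genes give small auxin-induced transcripts. Of 79 genes listed by ortholog or domain, many described as uncharacterized, 29 were tested. With NAA 5 rose and 1 fell at E-L 34, 6 rose and 1 fell at E-L 35, 1 rose and 6 fell at E-L 36, and 1 rose and 2 fell at E-L 38. With ABA 1 fell at E-L 34 (0.551% of all genes), 2 rose at E-L 35 (0.847%) and 1 fell at E-L 38 (0.466%). Of 11 TOPLESS genes, whose proteins carry out the repression by AUX/IAA, 7 were tested, and 2 rose at E-L 36 (VIT_209s0002g07020 from 45.2 ± 0.865 to 129 ± 6.16 FPKM, and VIT_211s0016g05620 from 27.6 ± 2.21 to 62.2 ± 5.61 FPKM). Both were at 121 ± 14.4 and 61.8 ± 10.8 FPKM in the ripe control.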

How the data were processed

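The deposited table held FPKM by its name and the sample titles, whereas the methods of the study name RPKM. Per those methods, the authors mapped reads with TopHat to a grape genome hosted at CRIBI. The submitters' processing notes also name Bowtie. The version of that genome and the counting tool are not given for the RNA libraries in the sources used here. The FPKM steps gave whole counts, within 0.002, for 24382 of 25280 genes (96.4%). Table columns name a treatment, a stage and a number, whereas the samples carry letters, so columns were mapped to groups only.

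FPKM values were tested as log2(FPKM + 1) with limma 3.58.1 (R 4.3.3), with an intensity trend and 1 fit over all 36 libraries (24 residual degrees of freedom), for 17598 genes with at least 1 FPKM in at least 3 libraries. p-values were two-sided and adjusted by Benjamini-Hochberg over all genes tested in a comparison. Tables and plots were made with matplotlib 3.10.9, pandas 2.3.3 and numpy 2.4.6 in Python 3.11.15.

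Members and gene lists were chosen with earlier results of these data known. Members were named with values where they were called against the control, were among the 3 highest of a family, or had 1 of the 3 largest changes of the NAA effect. Members called only in other comparisons, the ARF5, ARF7-like, ARF8 and ARF19-like genes and the pathway genes were named after their values were seen. Alternatives were a pseudocount of 0.1, no filter, a mean of at least 5 FPKM (10553 genes), median-of-ratios scaling (factors 0.833 to 1.20), quantile normalization, a fit of the groups compared only, a replicate block and leaving out 1 library at a time. A fit without the 3 libraries rich in seed markers and limma-voom on the recovered counts (17594 genes) were chosen after seeing the data.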

Additional observations from a re-analysis of the deposited data

Results flagged for a closer look

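The effect of NAA differed between E-L 34 and E-L 36 for 13 of 36 members in limma's interaction test, against 22.3% of all genes tested. Of these members 2 changed upward (8.75% of all genes) and 11 downward (13.6% of all genes). The values are the log2 effect at E-L 36 less that at E-L 34. It was more positive at E-L 36 for VIT_205s0020g01070 (IAA31, 3.75, adjusted p = 8.3e-10) and VIT_214s0030g02310 (22D, chromosome 14, 1.74, adjusted p = 0.00187). Both of these upward calls were lost with limma-voom on the recovered counts, and that of VIT_214s0030g02310 also with 0.1 added to the FPKM. Among AUX/IAA genes it was more negative for VIT_209s0002g05150 (22A-like, −2.84, adjusted p = 6.7e-08), VIT_211s0016g04490 (IAA1-like, −2.70, adjusted p = 4.0e-10), VIT_205s0049g01970 (IAA13, −2.56, adjusted p = 1.0e-09), VIT_207s0141g00290 (IAA16-like, −2.38, adjusted p = 1.1e-05), VIT_218s0001g08090 (IAA9, −2.19, adjusted p = 1.1e-06) and VIT_205s0020g04670 (22D, chromosome 5, −1.81, adjusted p = 0.00769). Among ARFs it was more negative for VIT_210s0003g00420 (ARF3, −2.50, adjusted p = 7.5e-11), VIT_206s0004g03130 (ARF4, −2.37, adjusted p = 3.4e-06), VIT_210s0003g04100 (ARF6, −1.77, adjusted p = 2.1e-08), VIT_206s0004g02750 (ARF18, −1.26, adjusted p = 6.3e-07) and VIT_213s0019g04380 (ARF18, −1.14, adjusted p = 1.5e-04). The stages of a treatment were sampled on different dates, so that a change of the effect with stage and with time since the spray cannot be told apart.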

How the results depend on the processing

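Values past the limits were recomputed 724 times under other settings for the members named by the rule above. Of these calls 662 were kept, 62 lost and 0 reversed. With 1 library left out they were recomputed 564 times, where 503 were kept, 61 lost and 0 reversed. Calls of members and pathway genes named after their values were seen were not followed in this way. Fits of the compared groups alone kept 47 of 83 calls, with fewer residual degrees of freedom by construction. They called 0 members for ABA at E-L 34, for NAA at E-L 35 and for NAA against ABA at E-L 35, where 0 of all genes were called too and nothing is said of the members. They called 5 members for NAA at E-L 34 (457 of all genes) and 0 for ABA at E-L 35 (36), NAA at E-L 38 (138), NAA against ABA at E-L 38 (362), Control E-L 35 against E-L 34 (22) and NAA100 E-L 36 against Control E-L 38 (182).

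With 0.1 added to the FPKM, members called at E-L 36 were 11 for NAA (5236 of all genes, 3496 as first tested) and 16 for NAA against ABA (6211, 4350 as first tested). At E-L 38 they were 0 for both (860 and 810 of all genes, 602 and 396 as first tested). For the control steps in order they were 3, 8 and 8 (641, 1523 and 4505 of all genes, 475, 820 and 3032 as first tested). For NAA100 E-L 36 against Control E-L 38 they were 0 (932 of all genes, 646 as first tested). With a mean of at least 5 FPKM they were 0 for ABA at E-L 34, 9 and 7 for NAA against ABA at E-L 34 and at the next stage, and 3 for Control E-L 36 against E-L 35, among the 25 members left. For that step median-of-ratios scaling gave 2 and quantile normalization 1, and quantile normalization gave 8 for NAA at E-L 36. The members called for ABA at E-L 34, VIT_206s0004g03130 and VIT_215s0046g00290, averaged 3.93 and 3.85 FPKM over all libraries. The filter on the mean thus removed both before testing, and its 0 calls there say nothing of them. limma-voom gave 9 for NAA at E-L 36 and 2 for Control E-L 35 against E-L 34. Calls among all genes for NAA at E-L 36 and for Control E-L 36 against E-L 35 stand with those results above. Where none are given, a change of the members cannot be told from a change over all genes. Apart from the change of tests and genes named, the cause was not tested.

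With 1 library left out, members called ranged from 0 to 2 for ABA at E-L 34, 1 to 3 for ABA at E-L 35, 10 to 12 for NAA at E-L 34, 5 to 10 for NAA at E-L 35, 0 to 4 for Control E-L 35 against E-L 34, 2 to 5 for Control E-L 36 against E-L 35, and 0 to 1 for NAA100 E-L 36 against Control E-L 38. Calls among all genes in these fits are not given here, so the ranges do not tell a change of the members from a change over all genes.

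The replicate block kept 82 of 83 calls and lost VIT_211s0016g03540 in Control E-L 36 against E-L 35. The column numbers pair no plots by the labels. Same-numbered libraries deviated together in all 3 pairs for NAA against ABA at E-L 38 alone (r = 0.123, 0.145 and 0.248 across genes), where the block changed no call. Counts limit the lowest genes: VIT_205s0020g01070 had 47 counts in Control E-L 36 and 9 in ABA1000 E-L 36.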
